A study of Branchiostoma belcheri with 3 samples.

Results

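The hepatic caecum and the intestine of the amphioxus Branchiostoma belcheri were compared by their microRNA (miRNA) profiles. Amphioxus is a marine invertebrate chordate. The hepatic caecum is a blind pouch that grows out of its gut and is commonly regarded as the counterpart of the vertebrate liver, and the intestine is the part of the same gut in which food is absorbed. The comparison took 2 of the 3 arrays of the study, 1 labelled intestine and 1 labelled hepatic caecum (spelled "hepatic caecom" in the labels). The remaining array, of gill, entered the normalization between arrays and no comparison. Every sample was untreated tissue pooled from 5 adults that had been collected at sea and kept at 26 °C, and RNA shorter than 300 nt was labelled with Cy3. Neither sex nor exact age was among the labels used here. With 1 array per tissue, tissue and array cannot be told apart, no test between tissues was possible, and errors below are SDs of the 2 spots of a probe on 1 array.

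A miRNA is a short RNA cut from a hairpin precursor. It binds messenger RNAs mainly through its seed, bases 2 to 8 from its 5′ end, and lowers their translation or stability, so miRNAs that share a seed can share targets. Several families are known from other animals to mark tissues or positions. In many bilaterians miR-10 genes lie inside Hox clusters, and let-7, miR-100 and miR-125 are often found in 1 cluster. In vertebrates miR-200 and miR-141 are abundant in epithelia, miR-216 and miR-217 in exocrine pancreas, miR-375 in endocrine cells, miR-122 in hepatocytes and miR-1 in muscle. Probes on the array carried target sequences of several species, named by a prefix: bbe for B. belcheri, bfl for the related amphioxus B. floridae, cin and csa for 2 sea squirts of the genus Ciona, odi for the tunicate Oikopleura, sko for an acorn worm, spu for a sea urchin, dre for zebrafish, pma for lamprey, xtr for the frog Xenopus tropicalis and xbo for the worm Xenoturbella. A family is taken here as all probes with the same miRNA number.

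The results turn on the following target sequences, which are the miRNA sequences printed in the scanner files, 5′ to 3′, with the seed in capitals. The first set holds the miR-10 family, lower in the hepatic caecum for each probe detected on both arrays, with bfl-miR-100-5p beside it because its sequence is close.
bfl-miR-10c: uACCCUGUagauccggacuugu
dre-miR-10c: uACCCUGUagauccggauuugu
dre-miR-10a-5p: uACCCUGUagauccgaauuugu
xtr-miR-10a: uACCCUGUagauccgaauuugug
dre-miR-10b: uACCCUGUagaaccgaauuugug
spu-miR-10: aACCCUGUagauccgaauuugug
bfl-miR-100-5p: aACCCGUAgauccgaacuugugu

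The second set holds other targets lower in the hepatic caecum, with bbe-miR-2076-5p and bfl-miR-34a beside them for their seeds. The bbe-miR-2076-5p target, whose centred log2 difference was 0.0, shares its seed with the miR-92 target and with miR-2063. The bfl-miR-34a target, higher in the hepatic caecum, shares its seed with bfl-miR-34b-5p.
bfl-miR-2070-5p: uUUCCACAgccucuacacaugu
bfl-miR-2062-5p: uGCAACAAuauuucaucagugg
bbe-miR-4863-5p: aGACAACAucagaaugucccu
bbe-miR-4856a-5p: aCGCAGUGacgucagcgccucu
bfl-miR-2072-5p: uGCAACAUcacagugaccacau
bbe-miR-92c-3p: uAUUGCACuugucccggcucg
bbe-miR-2076-5p: aAUUGCACuagagugauuuguu
bfl-miR-34b-5p: aGGCAGUGaugucaguuuguugu
bfl-miR-34a: uGGCAGUGuggauagcuggccguuu

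The last set holds targets that were higher, or detected only, in the hepatic caecum, and the miR-200 and miR-141 targets that share 1 seed.
bfl-miR-4870: gAUGUUUGuacugucugucuguu
cin-miR-4020b-5p: gUGUGGUUgguuggugguug
bfl-miR-4874-3p: cUGGCUGGuuggugcaaacagg
bfl-miR-4871-3p: uUUGGCACugguacuuuggagu
cin-miR-4171-5p: uGACUCUCuuaaggaagcca
bbe-miR-200c-3p: uAACACUGucugguaaugauga
cin-miR-141-3p: uAACACUGucugguaaagaugc
bfl-miR-217: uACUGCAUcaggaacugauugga
bfl-miR-4868a: uCAGCUCCagcgcugaucaguga
bfl-miR-4868b: uCAGCUCCagcugugaugaguga

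The hepatic caecum array had been scanned with its grid turned against the probe names. Over the 596 control spots the log2 densities correlated with those of intestine at r = 0.976 with the grid turned by 180 degrees and at 0.254 as deposited. Over the 3372 miRNA spots, r was 0.896 turned and 0.002 as deposited. All hepatic caecum values below are in the turned placement. The arrays also differed in background and noise. The 304 spots without a probe had a density of 115 ± 34.9 (SD) in intestine and 185 ± 144 in hepatic caecum, and the repeat spots of detected probes had a median coefficient of variation of 5.60% and 11.9%. A probe was called detected when its mean density exceeded the blank mean by 3 SDs, which put the threshold at 220 in intestine and 618 in hepatic caecum. The brightest probe stood 252 times above the threshold in intestine and 49.95 times in hepatic caecum.

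In the hepatic caecum 121 of 1686 miRNA probes (7.18%) of 46 families were detected, and in the intestine 201 probes (11.9%) of 71 families. Of the hepatic caecum probes 95.9% were also detected in intestine, and of the intestine probes 57.7% were also detected in hepatic caecum, which left 116 probes of 43 families on both arrays. The gap in numbers moved with the threshold: taken from the median of the blank spots, it gave 320 probes in hepatic caecum and 321 in intestine. Of the 85 probes detected in intestine alone, 59 had an intestine density at or below the hepatic caecum threshold, so an equal density there would have gone undetected. Their median density was 365 in intestine and 298 in hepatic caecum.

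The same families dominated both arrays. The let-7 family, which promotes differentiation in worms and vertebrates, held the first family rank in the hepatic caecum and the fifth in the intestine, ranked by the brightest probe of each family. Its brightest probe, dre-let-7a, had a density of 30866 ± 4277 in hepatic caecum and 30923 ± 453 in intestine. The miR-100 family was second on both arrays, with bfl-miR-100-5p at 27095 ± 1264 and 48359 ± 1597. The miR-125 family had rank 3 on both, led by dre-miR-125c in hepatic caecum at 19068 ± 373 and by dre-miR-125b in intestine at 35250 ± 373. Together the probes of these 3 families carried 44.8% of the blank-subtracted density of detected probes in hepatic caecum and 43.3% in intestine.

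Within the let-7 family, which has 39 probes on the array, the order of brightness was also alike on both arrays. Over the 11 let-7 probes detected on both, densities had a Spearman rho of 0.991. Their targets are nearly identical and may capture the same RNA, so the probes are not separate measurements. Of the 13 brightest probes, 7 were let-7 probes in hepatic caecum and 5 in intestine. This gap depends on the cut, because dre-let-7f ranked 13th in hepatic caecum and 17th in intestine, and pma-let-7c ranked 10th and 16th.

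The other families among the 10 brightest of the hepatic caecum were miR-4857, miR-31, miR-2076, miR-4171, miR-10, miR-4866 and miR-2067. For miR-4857, an amphioxus family, bbe-miR-4857-5p had 17621 ± 1996 in hepatic caecum and 13902 ± 390 in intestine. The amphioxus family miR-2076 had bbe-miR-2076-5p at 12601 ± 1700 and 14150 ± 1623, and bfl-miR-2067 had 8582 ± 344 and 6190 ± 105. For bfl-miR-4866-5p the repeat spots disagreed on both arrays, at 5716 and 13425 in hepatic caecum and at 1145 and 13696 in intestine. Families counted as amphioxus ones by their numbers made up 10 of the 20 brightest families on each array.

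**Figure D1:**
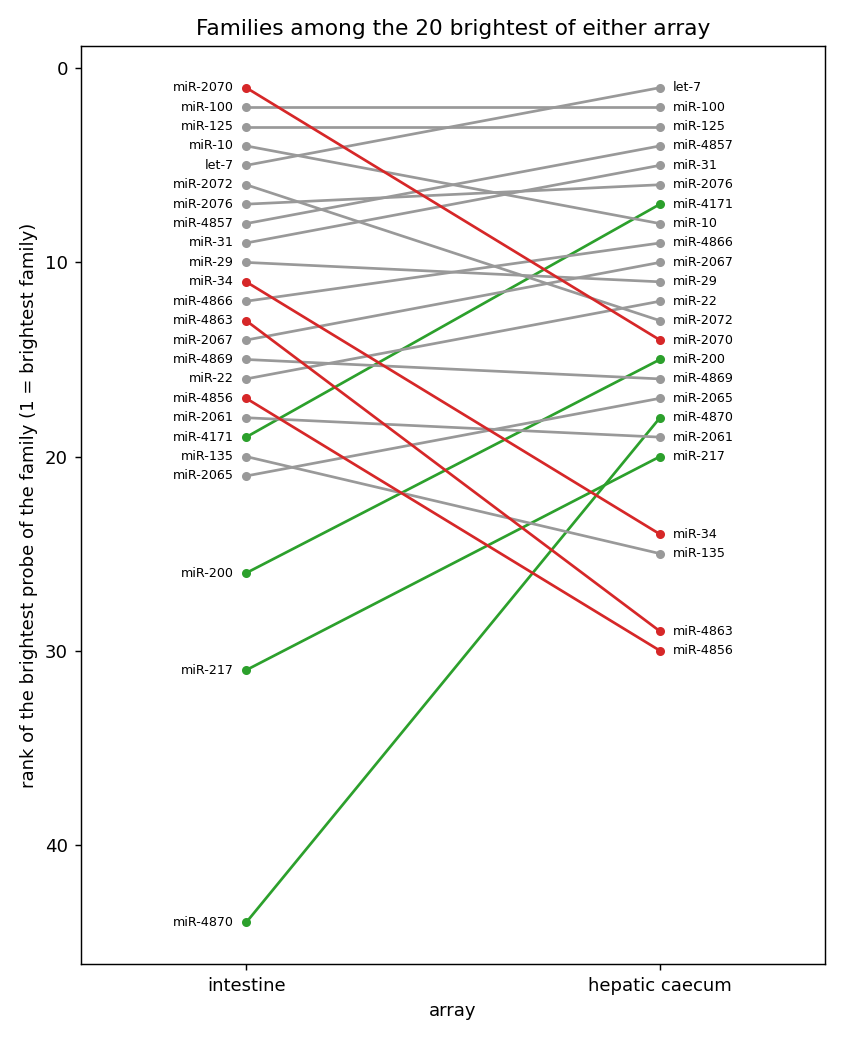
Rank of each family by its brightest probe (1 = brightest family) on the intestine and hepatic caecum arrays, for the 24 families that were detected on both and were among the 20 brightest of either array. Green lines mark the 4 families at least 10 ranks higher in hepatic caecum (miR-4171, miR-200, miR-4870, miR-217) and red lines the 4 at least 10 ranks lower (miR-2070, miR-34, miR-4863, miR-4856); 16 of the 20 brightest families were shared.

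Ranks within an array do not depend on how the arrays are scaled to each other. Of the 50 brightest probes of each array 39 were shared, and of the 20 brightest families 16. Over the 116 probes detected on both arrays, densities had a Spearman rho of 0.809, and over the 206 detected on at least 1 it was 0.771. These are descriptions across probes, many of which share sequence. The families of the hepatic caecum's 20 brightest that were not among those of intestine were miR-200, miR-2065, miR-4870 and miR-217, and those of the intestine's 20 brightest missing there were miR-34, miR-4863, miR-4856 and miR-135. By family rank, miR-4870 stood 18th in hepatic caecum and 44th in intestine, and miR-2070 stood 14th and 1st.

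**Figure D2:**
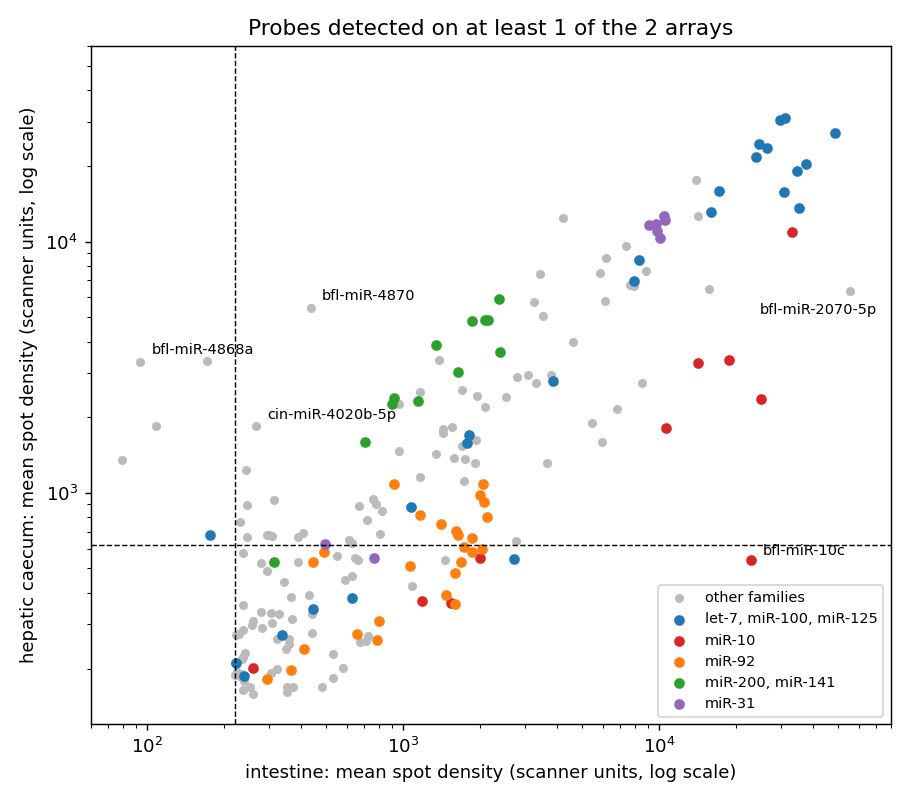
Mean density of the 2 spots in intestine (x axis) and hepatic caecum (y axis), both in scanner units on log scales, for the 206 probes detected on at least 1 of the arrays; dashed lines are the detection thresholds of 220 and 618. Probes of let-7, miR-100 and miR-125 form the upper right end, and miR-10 probes lie to the right of and below the band, with bfl-miR-10c at 22909 in intestine and 540 in hepatic caecum.

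Differences between the tissues were computed as log2 of hepatic caecum over intestine after background correction and quantile normalization, less their median over the 116 shared probes (0.32). A difference of at least 2-fold was counted. By that rule 18 probes of 15 families were higher in hepatic caecum (15.5% of the 116) and 21 probes of 9 families were lower (18.1%), while 77 differed less. The centred differences had an SD of 1.12, with quartiles of -0.54 and 0.63, against a median spot error of 0.213. Of the 18 higher calls 12 exceeded 2 SDs of their repeat spots, and of the 21 lower calls 18 did. Where a miRNA was lower, fewer cells that make it and less of it per cell cannot be told apart in pooled tissue.

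The higher calls lay near the detection limit of intestine and the lower calls did not. The median intestine density was 374 for the higher calls, 5977 for the lower calls and 2086 for all shared probes. An intestine density below the hepatic caecum threshold was found for 10 of the 18 higher calls and for 0 of the 21 lower ones. A shared probe had to exceed 618 in hepatic caecum but only 220 in intestine. A probe dim in intestine could therefore hardly be called lower, so this contrast follows at least in part from the unequal thresholds. The centred difference had a Spearman rho of -0.29 with the mean log2 level and of -0.15 with the GC content of the target.

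The balance of the calls depended on the scaling between arrays. It was 28 higher and 14 lower without centring, 26 and 20 without normalization between arrays, 8 and 31 with arrays scaled to 5 perfect-match spike-ins, and 1 and 92 with arrays scaled to 3 probes of 5S ribosomal RNA. The spike-ins were higher in hepatic caecum by 0.50 on the log2 scale and the 5S probes used by 2.07, whereas the shared miRNA probes differed by a median of -0.06 before normalization. The 5S probes used were those above the threshold on all 3 arrays, with density ratios of 5.88, 5.05 and 2.51. Left out were dre-5S-b2, at 357 in hepatic caecum and 404 in intestine, and dre-5S-b5 and dre-5S-b6, at blank level on both. Across the 7 other scalings tried, 14 of the 21 lower calls were made every time, and of the 18 higher ones 1 was. Compared with centring on the pair median without normalization between arrays, the spike-in and 5S scalings moved every difference downward. That can remove higher calls but not lower ones. Under the other 5 scalings, 15 of the 18 higher and 14 of the 21 lower calls were made every time. Leaving out the 5S scaling, 8 of the 18 higher calls were made under the other 6, namely bfl-miR-4870, cin-miR-4020b-5p, bfl-miR-4874-3p, bfl-miR-4871-3p, cin-miR-4171-5p, sko-miR-9, bbe-miR-135a-5p and dre-miR-22b.

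**Figure D3:**
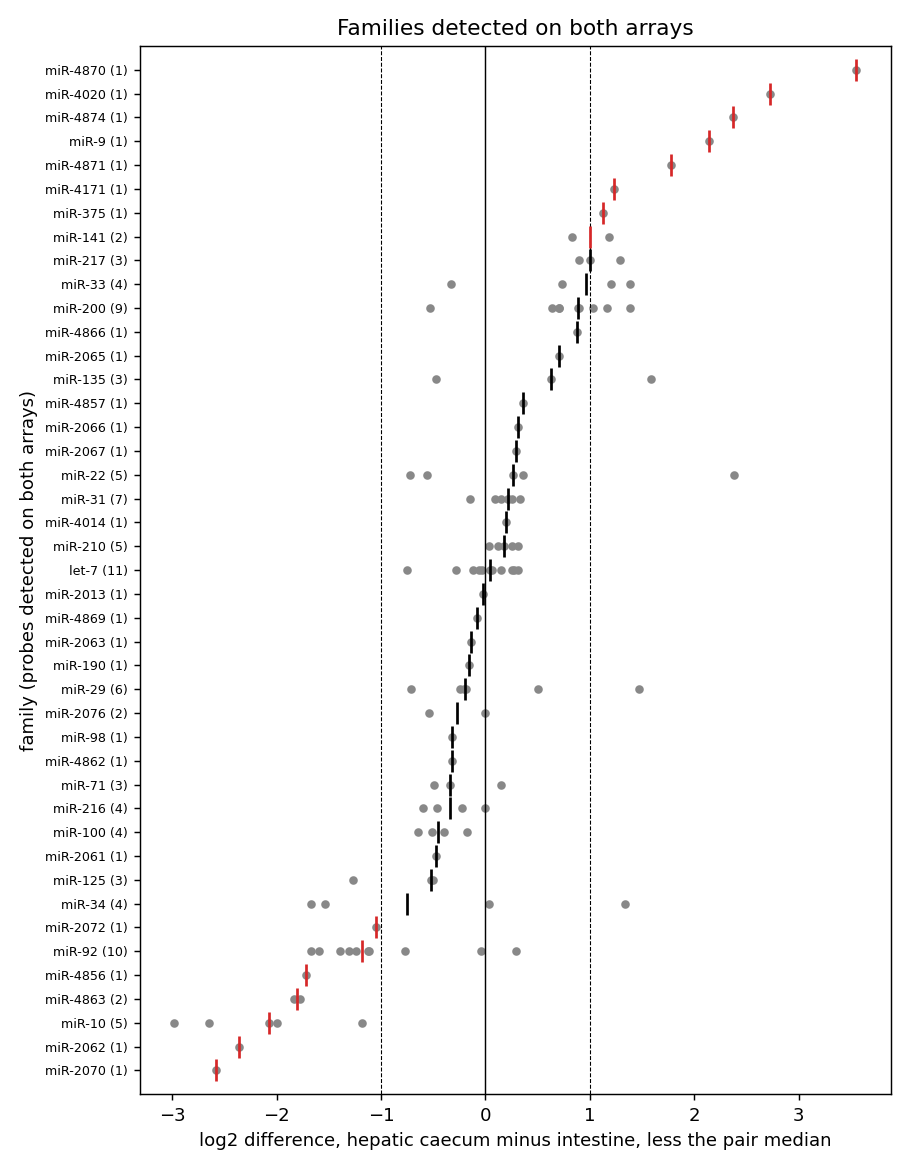
Centred log2 difference, hepatic caecum minus intestine, of the 43 families detected on both arrays; grey points are probes, vertical ticks are family medians (red where at least 2-fold) and numbers in brackets are probes. Of the 43 families 8 were at least 2-fold higher and 7 at least 2-fold lower; with 5S scaling all but miR-4870, miR-4020 and miR-4874 fell below 0.

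The miR-10 family was lower in the hepatic caecum for each of its 5 probes detected on both arrays. Of 17 miR-10 probes on the array, 10 were detected in intestine and 5 in hepatic caecum. The brightest, spu-miR-10, had 10867 ± 887 in hepatic caecum and 32972 ± 1951 in intestine. For dre-miR-10c the densities were 2356 ± 239 and 24943 ± 173, and for dre-miR-10a-5p they were 3392 ± 766 and 18764 ± 530. In both, every hepatic caecum spot lay below every intestine spot. The centred log2 differences were -2.98 ± 0.15 for dre-miR-10c, -2.65 ± 0.73 for dre-miR-10b, -2.08 ± 0.34 for dre-miR-10a-5p, -2.0 ± 0.06 for xtr-miR-10a and -1.18 ± 0.15 for spu-miR-10.

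The other 5 miR-10 probes were detected in intestine alone, as were 85 of all 201 probes detected there. The widest gap was that of bfl-miR-10c, at 22909 ± 266 in intestine and 540 ± 86.8 in hepatic caecum, below the threshold there. It was at least 34.9-fold lower in hepatic caecum, where a bound is the smallest of 3 estimates: from normalized levels relative to the pair median, from levels not normalized between arrays, and from the mean density over the threshold (or over the probe's own density where higher) on the other array. In intestine it ranked 14th of the 1686 probes and in hepatic caecum 136th. The 3p arm of another amphioxus hairpin, bfl-miR-10a-3p, was also lower, at 1178 ± 43.1 in intestine and 371 ± 38.5 in hepatic caecum, with a bound of 1.91-fold. All 10 probes had a lower rank in hepatic caecum than in intestine, as did 119 of all 201 probes detected in intestine. The share of blank-subtracted density that fell on miR-10 probes was 3.38% in hepatic caecum and 14.6% in intestine.

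Probes for miR-10 that differ by few bases gave different gaps. The target of bfl-miR-10c differs from that of dre-miR-10c by C18U, and that of dre-miR-10c from dre-miR-10a-5p by G16A, with positions counted from the 5′ end, the first base that of the first name. The uncorrected density ratio of hepatic caecum over intestine ran from 0.0236 in bfl-miR-10c to 0.778 in bfl-miR-10b, beside a median of 0.875 over all 201 probes detected in intestine. The probe with the smallest centred gap among those on both arrays, spu-miR-10, is 2 edits from dre-miR-10a-5p and 3 edits from bfl-miR-100-5p. The bfl-miR-100-5p probe itself was bright in both tissues, with a centred difference of -0.51 ± 0.08. Whether miR-100 bound the spu-miR-10 probe was not tested. The median of the family was -2.08 and lay between -4.60 and -1.18 over 18 alternatives that used the turned scanner values, all of them at least 2-fold lower.

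**Figure D4:**
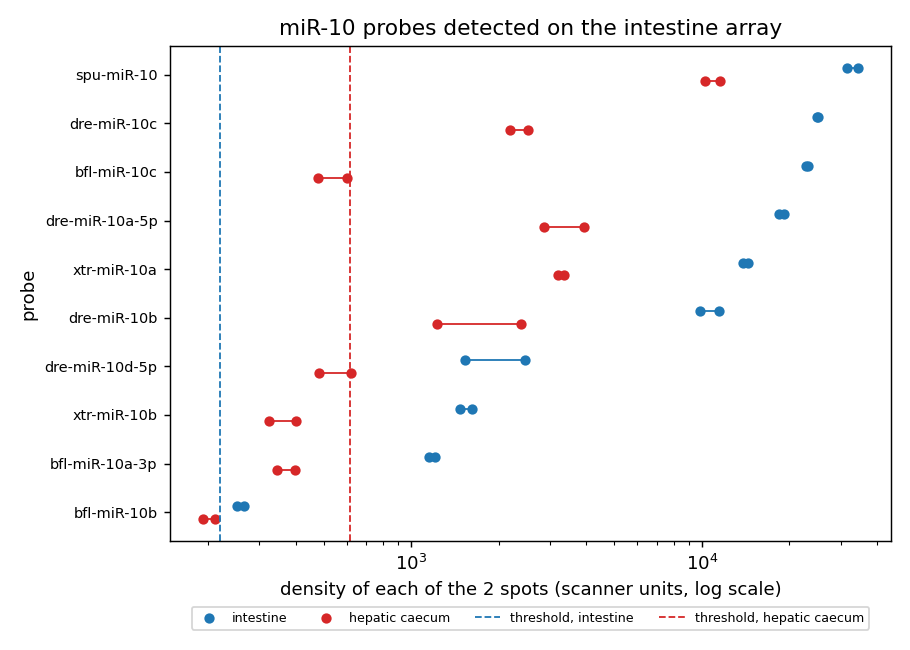
Density of each of the 2 spots (scanner units, log scale) of the 10 miR-10 probes detected in intestine, for intestine (blue) and hepatic caecum (red); dashed lines are the thresholds of 220 and 618. For each probe both hepatic caecum spots lie below both intestine spots, which was not counted over the other probes. In hepatic caecum 5 of the 10 probes are below the threshold, as are 85 of all 201 probes detected in intestine.

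The miR-196 family, whose genes also lie in Hox clusters, was not detected in intestine. In hepatic caecum 1 of its 10 probes passed the threshold, pma-miR-196b, on spots of 166 and 2543, and its bound of 2.32-fold thus rests on 1 bright spot.

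The miR-92 family, in vertebrates part of the miR-17-92 cluster linked to cell proliferation, was lower in the hepatic caecum for most probes. Of its 39 probes, 26 were detected in intestine and 10 of these also in hepatic caecum. Of the 10, 7 were at least 2-fold lower, against 18.1% of all 116 shared probes, and the family median was -1.19. Most of these targets differ by few bases, so the probes are not separate measurements. The B. belcheri probe bbe-miR-92c-3p had 800 ± 11.2 in hepatic caecum and 2129 ± 205 in intestine, a centred log2 difference of -1.59 ± 0.14. For dre-miR-92a it was -1.39 ± 0.63. Densities were low on both arrays, at most 1089 in hepatic caecum and 2129 in intestine.

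Most of the miR-92 probes detected on both arrays shared a seed. The 9 probes on both arrays with the seed AUUGCAC had centred log2 differences from -1.67 to -0.04 with a median of -1.24. The remaining one, cin-miR-92e-5p, has the seed GGUGUGG and a difference of 0.29 ± 0.21. The same AUUGCAC seed is carried by bbe-miR-2076-5p, with a difference of 0.00 ± 0.26, and by bfl-miR-2063, with -0.14 ± 1.85. By rank, 24 of the 26 miR-92 probes stood lower in hepatic caecum than in intestine, as did 119 of all 201 probes detected in intestine. The family's call was lost without centring, at -0.86, without a detection filter and with the first spots only.

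The brightest probe of the intestine was bfl-miR-2070-5p, of an amphioxus family. It had a density of 55591 ± 3030 there and 6382 ± 3983 in hepatic caecum, where it ranked 33rd. Its hepatic caecum spots were 9198 and 3565, both below the intestine spots of 57733 and 53448. The centred log2 difference was -2.58 ± 0.98. Another amphioxus miRNA, bfl-miR-2062-5p, had 641 ± 81.9 in hepatic caecum and 2767 ± 20.6 in intestine, a difference of -2.36 ± 0.21.

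For miR-4863, probes named for both amphioxus species measured nearly the same difference. The bbe target, of 21 bases, is the start of the bfl target, of 23 bases, so the probes are not separate measurements. The probe bbe-miR-4863-5p had 2164 ± 22.1 in hepatic caecum and 6820 ± 273 in intestine, and bfl-miR-4863-5p had 1592 ± 276 and 5977 ± 46.3. Their centred log2 differences were -1.78 ± 0.06 and -1.83 ± 0.27. The family was at least 2-fold lower under each of 19 alternatives that used the turned scanner values.

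The amphioxus family miR-4856 was lower with a wider error. For bbe-miR-4856a-5p the densities were 1903 ± 1425 in hepatic caecum and 5443 ± 163 in intestine, and the difference was -1.72 ± 1.27. Its relative bfl-miR-4856b-5p was detected in intestine alone, at 1454 ± 130 against 539 ± 65.2, with a bound of 2.35-fold. For bfl-miR-2072-5p the densities were 6451 ± 1190 and 15613 ± 1277 and the difference was -1.05 ± 0.30, close to the 2-fold line. In intestine this miRNA led the family of sixth rank, and in hepatic caecum the family of rank 13.

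The miR-34 family, which in vertebrates is induced by p53 and takes part in making motile cilia, went both ways. Both arms of miR-34b were lower in hepatic caecum. The probe bbe-miR-34b-3p had 2747 ± 462 in hepatic caecum and 8551 ± 71.1 in intestine, a centred log2 difference of -1.67 ± 0.25, and bfl-miR-34b-5p had 1318 ± 88.5 and 3654 ± 99.3, a difference of -1.54 ± 0.11. In contrast, bfl-miR-34a, with the same GGCAGUG seed as miR-34b-5p, was higher, at 680 ± 23.9 against 298 ± 11.9 and a difference of 1.34 ± 0.09. For bbe-miR-34f-5p the difference was 0.03 ± 0.10. Both miR-34b differences kept the 2-fold call under the 7 scalings, whereas that of bfl-miR-34a was not among the 15 higher calls made under all scalings other than 5S and spike-ins.

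Among probes detected on both arrays, the largest difference in favour of the hepatic caecum was that of bfl-miR-4870, an amphioxus miRNA. It had 5453 ± 2317 in hepatic caecum and 437 ± 300 in intestine, with ranks of 37 and 142. The centred log2 difference was 3.55 ± 1.32, and both hepatic caecum spots (7092 and 3815) were brighter than both intestine spots (649 and 225). It was the 1 higher call made under all 7 scalings, the lowest value being 1.77 with 5S.

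A Ciona miRNA and a pair of amphioxus miRNAs were also higher, all of them dim in intestine. The probe cin-miR-4020b-5p had 1844 ± 88.3 in hepatic caecum and 266 ± 6.65 in intestine, a centred log2 difference of 2.73 ± 0.08. For bfl-miR-4874-3p the densities were 1237 ± 86.6 and 243 ± 18.0 and the difference 2.38 ± 0.16. For bfl-miR-4871-3p they were 936 ± 123 and 312 ± 104 and the difference 1.78 ± 0.57. In intestine all 3 lay close above the threshold of 220. With 5S scaling the first 2 stayed positive at 0.78 and 0.31, and miR-4871 turned to -0.47.

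The Ciona probe cin-miR-4171-5p was bright in both tissues, at 12387 ± 4244 in hepatic caecum and 4188 ± 1576 in intestine. Its family moved from rank 19 in intestine to rank 7 in hepatic caecum. The centred log2 difference was 1.23 ± 0.76, and with 5S scaling it turned to -0.50. A probe of another species need not measure the same RNA in amphioxus, and no amphioxus probe of miR-4171 or miR-4020 was among the detected ones.

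Among probes of the epithelial families miR-200 and miR-141, calls were in favour of the hepatic caecum. Of the 11 detected on both arrays 4 were at least 2-fold higher and 0 lower, against 15.5% and 18.1% of all 116. The median of the 11 was 0.89, with the median over all shared probes at 0. Many of their targets differ by few bases, so the probes are not separate measurements. The B. belcheri probe bbe-miR-200c-3p had 3879 ± 1360 in hepatic caecum and 1345 ± 172 in intestine, a centred log2 difference of 1.38 ± 0.56. For cin-miR-141-3p the densities were 1589 ± 17.3 and 707 ± 23.6 and the difference 1.18 ± 0.05. The lowest was xtr-miR-200b at -0.54 ± 2.24, on hepatic caecum spots of 799 and 6495. By seed, the 4 probes with AACACUG had a median of 1.035 and the 7 with AAUACUG a median of 0.71. The miR-200 family rank was 15 in hepatic caecum and 26 in intestine, while with 5S scaling the medians of miR-200 and miR-141 turned to -0.82 and -1.0.

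Of the pancreas and endocrine families, miR-217 was close to the 2-fold line and miR-216 was not. The probe bfl-miR-217 had 2260 ± 110 in hepatic caecum and 963 ± 18.8 in intestine, a centred log2 difference of 1.0 ± 0.08 that fell just short of the count. For dre-miR-217 the difference was 1.29 ± 0.04. The family rank of miR-217 was 20 in hepatic caecum and 31 in intestine. The 4 miR-216 probes had a family median of -0.34, and their brightest densities were 2425 in hepatic caecum and 2088 in intestine.

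The miR-375 difference rested on 1 spot. Of 10 miR-375 probes 7 were detected in intestine, at densities up to 303, and 1 in hepatic caecum, bfl-miR-375, with spots of 288 and 1243. Its difference was 1.13 ± 1.78. The other detected endocrine family, miR-7, had 3 probes in intestine and 0 in hepatic caecum; xtr-miR-7 had 667 ± 37.4 in intestine and 541 ± 33.8 in hepatic caecum, a bound of 1.08-fold.

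Some further probes were called higher in families whose median stayed under the 2-fold line. The miR-33 family, which in mammals lies within genes of sterol regulation, had a median of 0.96, close to the line. Its 5p probes bfl-miR-33 and pma-miR-33a were higher by 1.39 ± 0.15 and 1.20 ± 0.11, from intestine densities of 293 and 307. The 3p probe bbe-miR-33-3p differed by 0.73 ± 0.17 and bbe-miR-33-2-3p by -0.34 ± 2.27. For miR-29, a regulator of collagen genes in mammals, bbe-miR-29b-3p was higher by 1.47 ± 0.10 at low density (665 ± 7.07 against 245 ± 15.8), while the bright bfl-miR-29a-3p differed by -0.19 ± 0.35 (7627 ± 1814 against 8850 ± 180).

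The repeat spots of 2 further calls disagreed. The call for dre-miR-22b was 2.38 ± 3.34, on intestine spots of 282 and 6557, whereas bbe-miR-22-3p, whose target differs by U11A (first base that of dre-miR-22b), differed by 0.36 ± 0.07. Likewise bbe-miR-135a-5p had 1.58 ± 3.01 on intestine spots of 193 and 3203, whereas bfl-miR-135a, the same target with 1 more base at its 3′ end, differed by -0.47 ± 0.03.

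Only 5 probes were detected in the hepatic caecum and not in the intestine, and 1 of them had a clear signal in both spots. The amphioxus probe bfl-miR-4868a had 3325 ± 353 in hepatic caecum, at rank 48, and 94.0 ± 7.13 in intestine, below the blank mean. It was at least 15.1-fold higher in hepatic caecum by the same 3 estimates, and at least 4.26-fold with 5S scaling. Its relative bfl-miR-4868b, which shares the CAGCUCC seed and differs by G12U, C13G and C18G (first base that of bfl-miR-4868a), had hepatic caecum spots of 545 and 6151 against 171 ± 13.4 in intestine, with a bound of 9.63-fold. The probe cin-let-7d-5p had 680 ± 211 and 176 ± 8.68, with a bound of 3.09-fold. The last, pma-miR-193 (150 and 3542) and pma-miR-196b, had 1 hepatic caecum spot each at blank level.

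**Figure D5:**
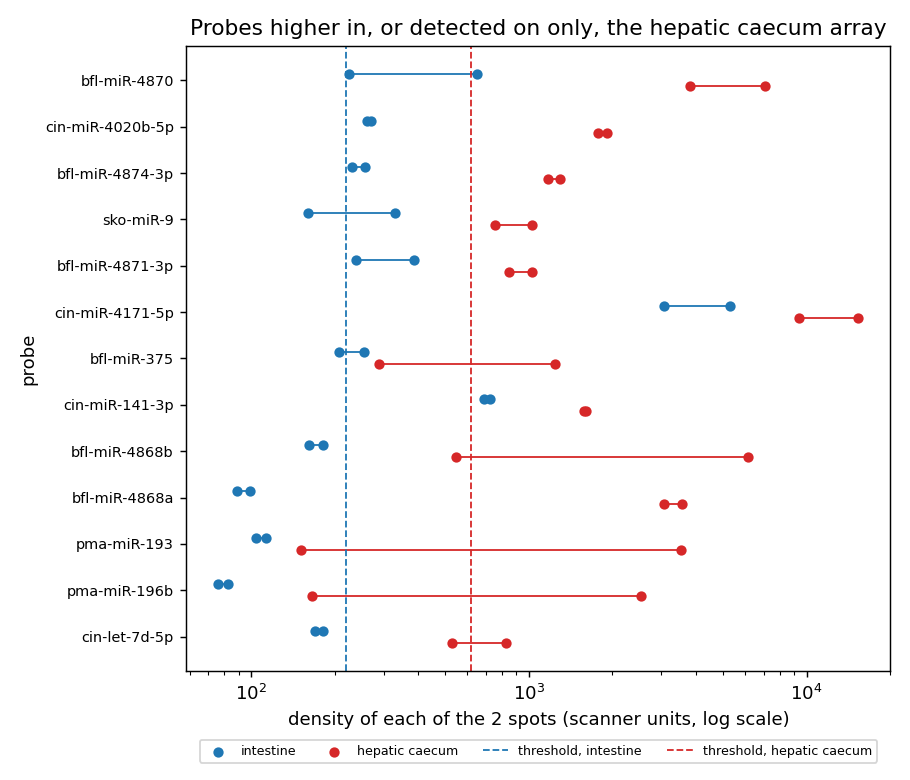
Density of each of the 2 spots (scanner units, log scale) in intestine (blue) and hepatic caecum (red), for 1 probe of each of the 8 families at least 2-fold higher in hepatic caecum and for the 5 probes detected there alone; dashed lines are the thresholds of 220 and 618. For every probe drawn both hepatic caecum spots lie above both intestine spots, and how often this holds among the other probes was not counted. This order is no separate support, because the probes were chosen for higher values in hepatic caecum. Blank spots were also brighter there (mean of 185 against 115). In hepatic caecum, pma-miR-196b, pma-miR-193, bfl-miR-375 and bfl-miR-4868b each have 1 spot far below the other.

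In the intestine alone 28 families were detected, most of them near the threshold, and for 4 of them the bound exceeded 1. These were bfl-miR-4859-5p at 1.75-fold (1080 ± 3.16 in intestine and 425 ± 3.15 in hepatic caecum), pma-miR-1c-3p at 1.175-fold (726 ± 30.3 and 270 ± 11.2), xtr-miR-7 at 1.08-fold and bfl-miR-4879 at 1.02-fold (632 ± 21.8 and 468 ± 16.2). For csa-miR-1473 the densities were 579 ± 72.9 and 200.5 ± 28.8, and no bound above 1 was obtained. The muscle miRNA miR-1 was seen by 4 of its 17 probes in intestine, at 529 to 726, and its highest hepatic caecum density was 272. The other families detected in intestine alone were miR-17, miR-214, miR-219, miR-252, miR-705, miR-2056, miR-2058, miR-2059, miR-2064, miR-2068, miR-4000, miR-4149, miR-4150, miR-4173, miR-4194, miR-4565, miR-4590, miR-4624, miR-4626, miR-4864, miR-4877, miR-4887 and miR-4891. No bound above 1 was obtained for any of them. Their brightest densities went both ways. In hepatic caecum and intestine, miR-4891 reached 527 and 279, miR-4877 561 and 550, and miR-4864 184 and 532.

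The marker families of vertebrate liver were below the threshold in both tissues. The 2 miR-122 probes reached 173 in hepatic caecum and 111 in intestine, and the 3 miR-192 probes 171 and 101, both at blank level. Also undetected were miR-194 and miR-215 of gut epithelium, miR-144 and miR-451 of vertebrate red blood cells, and miR-133 and miR-206 of muscle. The same held for miR-126, miR-150, miR-155, miR-142 and miR-223 of vertebrate endothelium and blood and for miR-124, miR-137 and miR-153 of neurons. It held as well for miR-183, miR-96 and miR-182 of sensory cells, miR-449 of ciliated cells and miR-429 of epithelium. Not all of these were at blank level. In hepatic caecum miR-153 reached 499, miR-126 407, miR-182 372 and miR-137 352, between the blank mean of 185 and the threshold of 618. No probe for miR-8 or miR-99 was among those analysed here. The neural miRNA miR-9 was seen by 1 of 12 probes, sko-miR-9, at 894 ± 192 in hepatic caecum and 245 ± 120 in intestine. Its difference was 2.14 ± 0.89, with an intestine spot of 161 below the threshold, and it turned to -0.12 with 5S scaling.

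Several families were close to equal. The miR-31 family, known from epithelia of mammals, had 7 probes on both arrays with centred log2 differences from -0.15 to 0.33 and 0 calls. Its amphioxus probe bfl-miR-31-5p had 10994 ± 832 in hepatic caecum and 9810 ± 468 in intestine. The 5 probes of miR-210, which responds to low oxygen in mammals, ranged from 0.04 to 0.31. Of the let-7, miR-100 and miR-125 probes, 18 were on both arrays with a median of -0.15, and 1 was called, dre-miR-125b at -1.27 ± 1.35 on hepatic caecum spots of 5786 and 21510. The family medians of let-7, miR-31 and miR-210 changed sign with the scaling, whereas those of miR-100 and miR-125 were below 0 under the main and all 7 other scalings.

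Counted over probes, families taken as amphioxus ones by their numbers spread more widely than the rest. Of their 20 probes on both arrays 3 were higher and 6 lower, against 15.5% and 18.1% of all 116, with a median of -0.11 and an SD of 1.56, and the other 96 probes had an SD of 1.01. The 96 include sets with near-identical targets, such as 11 let-7 and 10 miR-92 probes, which are not separate measurements. Whether the spread differs between families was not tested. By species of the target, the 49 shared amphioxus probes gave 9 higher and 9 lower and the 67 others 9 and 12, with medians of 0.03 and -0.04.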

How the data were processed

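Each of the 3 one-colour arrays has a deposited scanner table of spot densities (medians), per the file headers a linear intensity, with no background subtracted. The authors' deposited series table gives processed intensity values whose correction and scaling are not given in the sources used here, and it served as an alternative. The number of sample columns without a mapping was 0. From the deposited densities, log2 values were computed with limma 3.58.1 in R 4.3.3 (normexp, offset 50, fitted on all spots; repeat spots averaged; quantile normalization over 3 arrays), and the rest with Python 3.11.15, numpy 2.4.6, pandas 2.3.3, scipy 1.17.1 and matplotlib 3.10.9. The hepatic caecum densities were reversed in row-major order. A family's difference is the median over its probes detected on both arrays. For a probe detected on 1 array, the normalized bound is taken against its level on the other array or the lowest detected level there, whichever is higher, less the pair median; printed bounds are the smallest of 3 estimates, a rule chosen after seeing the data. Errors of differences add the spot SDs (log2, not yet normalized between arrays) of both arrays in quadrature. The script was tested on simulated data.

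Named were the 10 brightest families of each array, the 8 highest and 8 lowest by median difference, families detected on 1 array and all families of the marker lists. Further probes (of miR-33, miR-29, miR-22, miR-135, miR-125 and miR-210, and cin-let-7d-5p, miR-193 and miR-10 probes beyond the rule) were named after their values were seen. Members and lists were chosen with earlier results of these data known. The alternatives varied background correction, scaling, threshold, repeat spots, family definition and source. The number of arrays limits the precision.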

Additional observations from a re-analysis of the deposited data

How the results depend on the processing

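Of 834 family values recomputed under 21 alternatives, 602 moved by less than their spread, 223 by more, and 9 called values changed sign. These were, with 5S scaling, miR-141 (-1), miR-375 (-0.83), miR-4171 (-0.50), miR-4871 (-0.47) and miR-9 (-0.12), then miR-375 with the threshold from the blank median (-0.23) and without a filter (-0.14), and miR-4856 (1.62) and miR-92 (0.53) in the authors' deposited table. With the threshold from the blank median, 321 probes were detected in intestine, 320 in hepatic caecum, and 42 were higher and 50 lower. With a density over 500 in 1 tissue the counts were 34 and 43 and rho 0.707, and without a filter 98 and 98 and rho 0.425. Scaling gave 28 higher without centring, 8 with spike-ins, and 1 higher and 92 lower with 5S. First spots alone gave rho 0.751. Under the deposited names 4 hepatic caecum probes were detected, none of them in intestine, so no differences could be computed, and 2 of the 50 brightest probes and 4 of the 20 brightest families were shared. The authors' deposited table, which follows those names, gave 35 higher, 34 lower, rho 0.0531 and the same 2 and 4 shared. The calls of miR-10, miR-4863 and miR-4870 stood in every alternative with turned scanner values that gave them a value, those of miR-4020, miR-4874 and miR-4871 in all but 5S scaling, and that of miR-2070 in all but the one without a filter. That of miR-2062 was lost without a filter and had no value with both spots above the threshold or with second spots only. By normalized levels alone, the bounds were 17.8 for bfl-miR-4868a, 3.45 for bfl-miR-4856b-5p, 3.26 for bfl-miR-10a-3p, 2.95 for bfl-miR-4859-5p and 1.96 for pma-miR-1c-3p. Leaving out probes whose 2 spots differ over 2-fold, an alternative chosen after seeing the data, left 99 probes with 12 higher and 18 lower. No paired analysis was possible because each tissue has 1 array. In hepatic caecum the blank spots had a higher mean and a wider spread, and the threshold of 618 set from both limits what is called detected.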
